A study of Mus musculus with 48 samples.

Results

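Ccr7, S1pr1, S1pr4 and Cd69 are 4 genes that set where T cells home and when they leave lymphoid tissue. They were chosen by name, and all 4 were found in each source, among 52636 gene identifiers in the sorted-cell RNA counts, 35661 in the donor T cell counts and 28692 in the single-cell matrices. The series holds 48 mouse samples and follows invariant natural killer T (iNKT) cells, T cells with a semi-invariant receptor for CD1d-presented lipids, from the thymus into a transplant setting. Sublineages called iNKT1, iNKT2 and iNKT17 were sorted from thymi of FVB mice for RNA-seq and for ATAC-seq, which reads open chromatin, with 2 libraries per sublineage and assay used here; 4 further iNKT1 RNA samples sorted by CD4 were not analysed here. Total thymic iNKT cells of 2 FVB/N mice aged 8 weeks, thymus A and thymus B, were profiled as single cells. Donor conventional CD4 and CD8 T cells of FVB origin were sequenced before transfer (day 0) and on day 7 of a graft-versus-host disease model in which FVB cells were given across a major mismatch to Balb/C hosts. Hosts received no further cells (untreated) or iNKT1, iNKT2 or iNKT17 cells, with 3 libraries in each of the 10 donor groups. By the titles, every donor group mixed libraries of different experiments, and no term for the experiment was fitted. The tissue given for the donor cells is spleen and peripheral lymph nodes, so cells in other organs of the host were not measured. Nothing in the labels says that libraries of a group came from separate animals, so p-values measure the spread between libraries, which may be technical. In the bulk libraries, fewer cells of a type and less RNA per cell cannot be told apart.

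CCR7 is the receptor for the chemokines CCL19 and CCL21, and it brings naive T cells into lymph nodes. S1PR1 senses sphingosine-1-phosphate (S1P), which is high in blood and lymph and low inside tissue, and it guides T cells out of thymus and lymph nodes; S1PR4 is a second S1P receptor of leukocytes. CD69, an early activation marker, binds S1PR1 on the same cell and takes it off the surface, and KLF2 is a transcription factor that drives S1pr1.

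In the count tables, totals ran from 26811373 to 33688697 per iNKT RNA library, from 13299586 to 42964216 per ATAC library, from 25323879 to 37055182 for CD4 and from 26134241 to 33658426 for CD8 cells. Levels below are read counts relative to library size (CPM) after scaling by edgeR's TMM method, and a gene passed the test when its adjusted p (edgeR's quasi-likelihood test, Benjamini-Hochberg over all genes) was under 0.05. The iNKT RNA libraries were the most variable, with a common biological coefficient of variation of 1.30 against 0.288 in CD4 and 0.196 in CD8 cells. Marker genes fitted the labelled sublineages: the summed level of 8 iNKT1 markers was 4102 to 4152 CPM in iNKT1 libraries and at most 787 CPM elsewhere, and that of 8 iNKT17 markers was 5968 to 7003 CPM in iNKT17 libraries and at most 33.1 CPM elsewhere. The 8 iNKT2 markers were less exclusive, with 3081 to 3385 CPM in iNKT2, 2070 to 2367 CPM in iNKT17 and 195 to 285 CPM in iNKT1 libraries. At least 5 of 6 B cell markers were at 0 counts in each sublineage.

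Ccr7, the homing receptor, was nearly absent from iNKT1 cells and present in both other sublineages. The iNKT1 libraries held 2 and 0 Ccr7 counts (0.0655 and 0 CPM), the iNKT2 libraries 57.7 and 158.1 CPM, and the iNKT17 libraries 56.8 and 31.0 CPM. The 3 groups did not overlap, and iNKT2 stood above iNKT17 by a margin of less than 1 CPM between their nearest libraries. Over pooled counts the level in iNKT2 was 3396 times that in iNKT1 (95% interval 939.6 to 28050, counting error only), and in iNKT17 it was 1442 times as high (398.8 to 11910). The fitted log2 fold change was +11.54 ± 1.55 (SE; adjusted p = 0.0061) for iNKT2 and +10.25 ± 1.49 (adjusted p = 0.00604) for iNKT17 against iNKT1. The size of both changes rests on the 2 counts in iNKT1 and is imprecise. Between iNKT17 and iNKT2 the difference of -1.30 did not pass (95% interval -3.51 to 0.91, adjusted p = 0.752). Fitted on the compared groups alone, the iNKT17 call was lost (adjusted p = 0.284).

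Cd69 had the opposite order. It was measured at 267.5 and 446.8 CPM in iNKT1, 22.5 and 57.3 CPM in iNKT17 and 10.9 and 3.62 CPM in iNKT2 libraries. Each group stood clear of the next. Cd69 was lower in iNKT2 than in iNKT1 by -5.62 ± 0.75 on the log2 scale (adjusted p = 0.00578) and lower in iNKT17 than in iNKT1 by -3.16 ± 0.67 (adjusted p = 0.0472). The second call was close to the threshold: it was lost with RLE scaling (adjusted p = 0.0566), without iNKT1 replicate 2 (0.189) and without iNKT17 replicate 1 (0.0821). Cd69 was higher in iNKT17 than in iNKT2 by +2.45 (interval 1.00 to 3.91), which did not pass (adjusted p = 0.224 in edgeR), although DESeq2 called it (adjusted p = 0.00149).

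The S1P receptors differed less. S1pr4 was at 139 and 128.7 CPM in iNKT1, 20.2 and 58.2 CPM in iNKT2 and 52.0 and 32.5 CPM in iNKT17 libraries, so both iNKT1 libraries stood above the other four, which overlapped. The difference from iNKT1 was -1.77 ± 0.67 in iNKT2 (interval -3.27 to -0.27, adjusted p = 0.496) and -1.66 ± 0.67 in iNKT17 (interval -3.16 to -0.17, adjusted p = 0.42). Neither passed in edgeR, and DESeq2 called the first (adjusted p = 0.036). S1pr1 was at 29.3 and 34.5 CPM in iNKT1 and 29.5 and 18.7 CPM in iNKT2, which overlapped. One iNKT17 library held 364 S1pr1 counts (11.7 CPM) and the other a single count (0.0388 CPM), both below every library of the other sublineages. The intervals for S1pr1 were wide, from -5.58 to 4.77 for iNKT2 and from -7.89 to 3.01 for iNKT17 against iNKT1, so a large difference in either direction could not be detected here.

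Of the 4 genes, 2 passed against iNKT1 in each comparison (Ccr7 and Cd69), beside 1.29% of all 12372 genes tested for iNKT2 (0.533% higher, 0.752% lower) and 2.0% for iNKT17 (0.986% higher, 1.01% lower); none passed between iNKT17 and iNKT2, where 0.711% of genes did. Other marker lists differed between the sublineages too, and their part in these differences was not tested. The 6 markers of immature iNKT cells followed the order of Ccr7, with 71.5 to 85.9 CPM in iNKT1, 109.7 to 125.7 CPM in iNKT17 and 321 to 354 CPM in iNKT2 libraries. The 3 co-receptor genes summed to 45.0 to 52.4 CPM in iNKT1, 484 to 531 CPM in iNKT2 and 0.349 to 7.56 CPM in iNKT17. In the same order, 5 proliferation genes summed to 52.5 to 160.6, 284 to 317 and 93.5 to 267 CPM. The 7 stromal and epithelial genes summed to 5.53 to 19.2, 128.5 to 151.5 and 64.6 to 91.2 CPM. Only 3, 2 and 3 of these 7 had any counts, and Ccl19, Ccl21a, Col3a1 and Pdpn were at 0 in every sublineage.

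**Figure D1:**
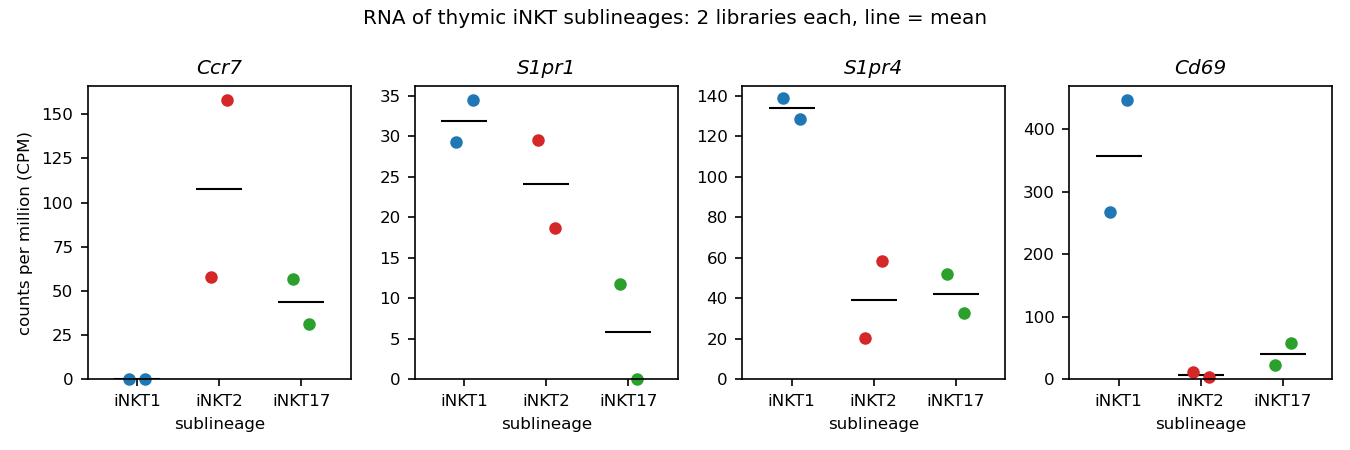
Level of each gene in every sorted thymic iNKT RNA library, in CPM, with 2 libraries per sublineage as points. Ccr7 lies at or near 0 in both iNKT1 libraries, Cd69 and S1pr4 are highest there, and 1 iNKT17 library has almost no S1pr1.

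The 7 lists of related genes held 58 genes. Among transcription factors tied to homing and egress, 2 rose, 1 fell and 5 did not pass of 8 tested in iNKT2 against iNKT1 (median log2 change -0.467, against 0.09 over all genes): Tcf7 (+1.21, adjusted p = 0.0306) and Lef1 (+3.36, adjusted p = 0.035), partners in naive and memory T cell programmes, rose, and Klf2 fell (adjusted p = 0.0378). Klf2 was at 174.1 and 289.9 CPM in iNKT1, 10.6 and 32.3 CPM in iNKT2 and 35.1 and 31.1 CPM in iNKT17, where its difference from iNKT1 of -2.81 did not pass (adjusted p = 0.0664) and Tcf7 rose (+1.45, adjusted p = 0.00784). Rgs1, which shortens signalling from chemokine and S1P receptors, was the only called gene of 12 in the list for receptor coupling and motility, and fell by 5.01 in iNKT2 (adjusted p = 0.000522) and by 4.02 in iNKT17 (adjusted p = 0.000798). Of 9 activation genes listed beside Cd69, only Junb was called, lower in iNKT17 than in iNKT1 by -1.21 (adjusted p = 0.0487) and lower in iNKT2. Gpr183, an oxysterol receptor for positioning in lymphoid tissue, was higher in iNKT17 than in iNKT2 (+3.03, adjusted p = 0.021). No S1P receptor (3 of 5 tested), no gene of S1P making and export (3 of 10 tested) and no neighbour of Cd69 in the natural killer gene complex (5 of 7 tested) passed in any of the 3 comparisons. The neighbours still had median log2 changes of -4.08 (iNKT2 against iNKT1), 0.168 (iNKT17 against iNKT1) and 5.575 (iNKT17 against iNKT2). Over all genes the medians were 0.09, -0.034 and -0.092, so not passing does not show that the neighbours were unchanged. S1pr5, an egress receptor of natural killer cells, had 62 counts in iNKT1 replicate 1 and 0 in the other five.

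Chromatin was compared at 41 open regions lying nearest to these genes and within 50000 bases of them (coordinates in GRCm38, also called mm10): 15 for Ccr7 (chr11:99144199-99155077), 10 for S1pr1 (chr3:115710433-115715055), 15 for Cd69 (chr6:129267324-129275375) and 1 for S1pr4 (chr10:81497745-81500137). Nearness does not show that a region acts on a gene. At Ccr7, 10 of 15 regions were more open and 1 less open in iNKT2 than in iNKT1, beside 22.3% and 16.3% of all 54520 regions tested (38.6% in either direction), and the median log2 change was +1.26 against 0.06. In iNKT17 against iNKT1, 6 were more and 1 less open (23.5% and 13.6% of all regions, 37.1% together; median +0.72). At Cd69, 10 of 15 were less open and none passed as more open in iNKT2 (median -1.22), and 3 were less open in iNKT17. At S1pr1, 5 of 10 were less open and none passed as more open in each of the 2 comparisons with iNKT1. Between iNKT17 and iNKT2, 4 Ccr7 regions were less open, 1 S1pr1 region was less open and 2 Cd69 regions were more open (5.11% higher and 3.24% lower over all regions, 8.34% together). With the replicate number as a block, which takes ATAC libraries of equal number as pairs, more regions passed everywhere. Over all regions, 27.6% were then more and 25.9% less open for iNKT2 against iNKT1, 28.7% and 24.8% for iNKT17 against iNKT1, and 10.8% and 7.7% for iNKT17 against iNKT2. Beside these, Cd69 had 12 regions less and 1 more open in iNKT2, 6 less open in iNKT17, and 3 more and 1 less open in iNKT17 than in iNKT2. S1pr1 had 6 less and 1 more open in iNKT2, 7 less open in iNKT17 and 2 less open in iNKT17 than in iNKT2, and Ccr7 had 12, 8 and 0 more and 1, 1 and 7 less open in the same 3 comparisons.

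At the Ccr7 start site, chr11:99154638-99155524 was read at 26.1 and 21.6 CPM in iNKT1, 61.0 and 69.0 CPM in iNKT2 and 35.0 and 25.4 CPM in iNKT17. It was more open in iNKT2 (+1.45 ± 0.22, adjusted p = 0.0013), while iNKT17 and iNKT1 overlapped (+0.34, adjusted p = 0.246). The region with the smallest p, chr11:99170664-99171272, lies 15587 bases upstream of the gene and was nearly closed in iNKT1. It was read at 0.83 and 0.31 CPM in iNKT1, 14.95 and 22.6 CPM in iNKT2 and 4.06 and 4.29 CPM in iNKT17, a difference from iNKT1 of +4.96 ± 0.45 (adjusted p = 0.000235) and +2.80 ± 0.43 (adjusted p = 0.00101). Downstream of Ccr7, chr11:99131165-99131892 was about equally open in iNKT2 (24.0 and 20.2 CPM) and iNKT17 (27.0 and 24.4 CPM) and lower in iNKT1 (7.28 and 6.64 CPM). Also downstream, chr11:99136420-99136830 rose by +2.53 in iNKT2 (adjusted p = 0.000404) and by +1.18 in iNKT17 (adjusted p = 0.01); the second call was lost without iNKT1 replicate 2 (adjusted p = 0.0707) or iNKT17 replicate 1 (0.0584).

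The Cd69 start site, chr6:129274999-129275633, was read at 50.0 and 49.4 CPM in iNKT1, 16.1 and 12.4 CPM in iNKT2 and 17.9 and 26.7 CPM in iNKT17. It was less open than in iNKT1 by -1.80 ± 0.25 in iNKT2 (adjusted p = 0.000857) and by -1.15 ± 0.24 in iNKT17 (adjusted p = 0.00519). Inside the gene, chr6:129273533-129274040 split the sublineages differently, with 35.7 and 39.8 CPM in iNKT1, 6.50 and 8.03 CPM in iNKT2 and 21.1 and 46.9 CPM in iNKT17. It was more open in iNKT17 than in iNKT2 (+2.23 ± 0.35, adjusted p = 0.00726), and the iNKT17 libraries lay on either side of the iNKT1 ones. The most open of the named Cd69 regions, chr6:129284392-129285187, lies 9017 bases upstream and was read at 106.9 and 129.7, 46.3 and 55.1, and 53.0 and 75.9 CPM in iNKT1, iNKT2 and iNKT17. Its lower level in iNKT17 (-0.88, adjusted p = 0.0133) was not called without iNKT1 replicate 2 (adjusted p = 0.0668) or iNKT17 replicate 1 (0.0741). Downstream, chr6:129239961-129240371 was also less open in iNKT2 (-2.04, adjusted p = 0.00423) and in iNKT17 (-2.94, adjusted p = 0.000646).

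No region overlapped the S1pr1 start site. The upstream region chr3:115758309-115759402 was read at 40.9 and 49.5 CPM in iNKT1, 10.3 and 10.2 CPM in iNKT2 and 9.17 and 11.01 CPM in iNKT17, lower by -2.14 ± 0.22 (adjusted p = 0.000302) and -2.16 ± 0.22 (adjusted p = 0.000156). S1pr1 RNA overlapped between iNKT1 and iNKT2. Its interval for iNKT2 against iNKT1 (-5.58 to 4.77) was too wide to tell whether the transcript followed this region. Downstream, chr3:115692229-115692793 was at 17.3 and 22.5 CPM in iNKT1, 3.84 and 4.25 CPM in iNKT2 and 2.84 and 1.47 CPM in iNKT17. Within the gene, chr3:115711834-115712162 fell from 6.79 and 9.23 CPM in iNKT1 to 1.47 and 0.932 CPM in iNKT17 (-2.75, adjusted p = 0.000674). Its smaller difference in iNKT2 (-1.13, adjusted p = 0.0354) lost its call when iNKT1 replicate 1 (adjusted p = 0.0539), iNKT1 replicate 2 (0.223) or iNKT2 replicate 1 (0.19) was left out.

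The single S1pr4 region, chr10:81499580-81499829, lies inside the gene just downstream of its start. It was read at 16.4 and 22.6 CPM in iNKT1, 9.73 and 13.3 CPM in iNKT2 and 9.93 and 8.78 CPM in iNKT17, and was less open by -0.76 ± 0.27 in iNKT2 (adjusted p = 0.0478) and by -1.06 ± 0.27 in iNKT17 (adjusted p = 0.0126). Leaving out iNKT1 replicate 1 (adjusted p = 0.0524), iNKT1 replicate 2 (0.343) or iNKT2 replicate 1 (0.27) ended the first call, and leaving out iNKT1 replicate 2 (0.102) or iNKT17 replicate 2 (0.0505) the second. Of the 4 genes only S1pr4 was matched in the supplied RefSeq promoter table, and its 250 bases upstream of the start, chr10:81500138-81500387 in GRCm38.p6 on the minus strand, are shown 5′ to 3′ because KLF2 is tied to S1P receptor expression; the capitals mark the one KLF core found.
S1pr4 promoter: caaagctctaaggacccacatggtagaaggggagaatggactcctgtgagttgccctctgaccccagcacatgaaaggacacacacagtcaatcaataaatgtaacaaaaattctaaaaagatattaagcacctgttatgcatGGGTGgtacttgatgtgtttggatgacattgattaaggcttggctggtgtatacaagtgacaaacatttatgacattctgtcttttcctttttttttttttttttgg
The KLF core CACCC was searched on both strands and occurred here as GGGTG, 107 bases before the start. Of 32851 promoters of this length, 52.0% held it, so its presence is common. The letters searched for FOXO (TGTTTAC), AP-1 (TGANTCA), NFAT (TGGAAA) and TCF/LEF (CTTTGAT) were not in this window on either strand, and 3.17%, 6.75%, 18.6% and 3.21% of promoters held them. A match describes letters and not a bound site.

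**Figure D2:**
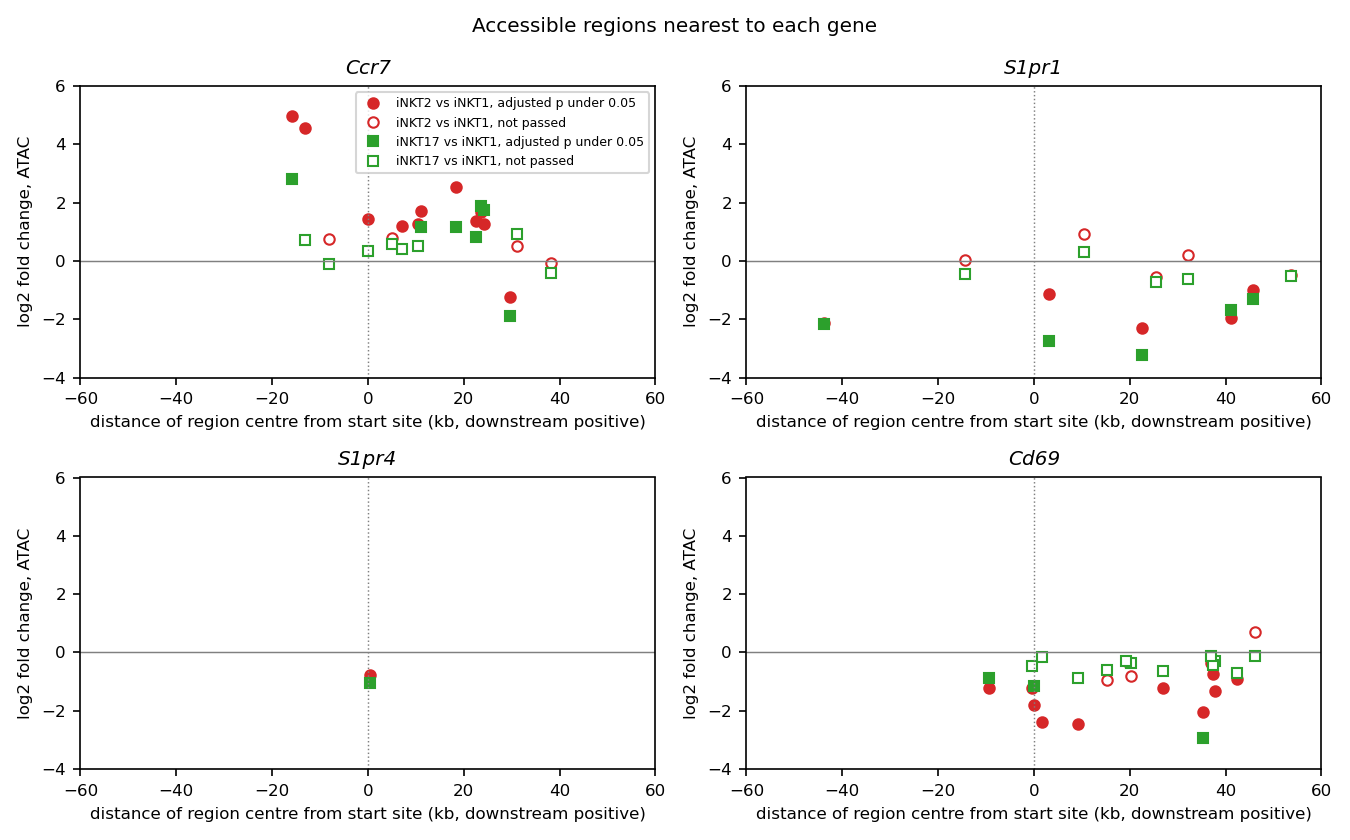
Log2 change in open-chromatin reads for the 41 regions near the 4 genes, against the distance of each region's centre from the gene's start site in kilobases (downstream positive); filled points passed the test (adjusted p under 0.05). Ccr7 regions lie mostly above 0 and Cd69 and S1pr1 regions mostly below 0 in both comparisons with iNKT1.

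Single cells allowed the genes to be placed in cells grouped without them, since the 4 genes and the 7 lists were left out of the clustering. After a minimum of 1000 unique molecular identifiers (UMIs) per barcode, 142 cells of thymus A and 146 of thymus B remained, with medians of 5206.5 and 5790 UMIs and 0 shared barcodes. With 1 condition and 2 mice no test was made, and intervals are exact 95% binomial ones that cover counting error only. Of 5 clusters, cluster 0 was iNKT1-like (Ccl5, Nkg7, Xcl1 and Fcer1g among its leading genes). Cluster 1 was iNKT2-like (Il4, Cd4, Il6ra) and cluster 4 iNKT17-like (Blk, Sdc1, Tmem176a, Il1r1). Clusters 2 and 3 had too few markers among their leading genes to be named. Summed iNKT2 markers did not set cluster 1 (1020 CPM) apart from cluster 3 (1041 CPM). They were at 855 CPM in cluster 4, 719 CPM in cluster 2 and 163 CPM in cluster 0. Shares for cluster 1 thus cover only some of the cells with iNKT2 markers. At a finer resolution of 1.2 no cluster had the markers to be called iNKT2-like, and at 0.4 that class held 70 and 77 cells, with Ccr7 in 14.3% and 19.5% of them.

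A Ccr7 UMI was found in 12 cells of thymus A (8.45%, 4.44 to 14.3%) and 16 of thymus B (10.96%, 6.40 to 17.19%), and none of them was in cluster 0. The iNKT1-like cluster gave 0 of 53 and 0 of 37 cells, which allows shares of cells with a UMI of up to 5.66% and 8.11% (3 counts over the cells), at median depths of 4163 and 3604 UMIs. The iNKT2-like cluster gave 8 of 43 cells (18.6%, 8.39 to 33.4%) and 10 of 51 (19.6%, 9.82 to 33.1%), at deeper medians of 7741 and 7716 UMIs. Thinned to 2000 UMIs per cell, which left out 7 cells of each thymus, the shares were 0 of 51 and 0 of 33 against 3 of 42 (7.14%) and 4 of 51 (7.84%). The iNKT17-like cluster gave 2 of 19 and 1 of 31 cells (10.5% and 3.23%). After thinning it gave 0 of 16 and 0 of 29, so thinned counts did not separate it from the iNKT1-like cluster. Counts of 0 in so few thinned cells still allow low shares. The unnamed cluster 2 gave 2 of 14 and 4 of 16 (14.3% and 25.0%). The intervals of clusters 1, 2 and 4 overlapped, and cluster 0 had no Ccr7 in either mouse, where sorted iNKT1 cells had almost none. Of the 28 cells with Ccr7, 12 (42.9%) had Cd4, against 45 of 260 (17.3%) without Ccr7. The thymocyte and CD8 T cell gene Cd8b1 was in 1 (3.57%), against 3 of 260 (1.15%). None had the B cell genes Ms4a1 or Cd79a, the myeloid gene Lyz2 or the thymocyte gene Rag1, and no cell without Ccr7 had those 4 genes either. These shares were not taken at equal depth or within clusters, and all cells with Ccr7 lay outside the shallower cluster 0.

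Cd69 UMIs had the reverse placement, in 11 of 53 (20.8%, 10.8 to 34.1%) and 8 of 37 (21.6%, 9.83 to 38.2%) iNKT1-like cells and 2 of 43 (4.65%) and 2 of 51 (3.92%) iNKT2-like cells, the deeper ones. After thinning these were 5 of 51 (9.80%) and 4 of 33 (12.1%) against 0 of 42 and 0 of 51. Only 1 cell had both Ccr7 and Cd69. S1pr4 was the most widely seen of the 4, in 36 (25.4%) and 39 (26.7%) cells, from 34.0% and 27.0% of iNKT1-like to 23.3% and 23.5% of iNKT2-like and 26.3% and 25.8% of iNKT17-like cells, with intervals that overlapped between clusters. S1pr1 was seen in 2 cells of each thymus, too few to place. Klf2, in contrast, was seen in 62.3% and 67.6% of iNKT1-like and in 4.65% and 17.6% of iNKT2-like cells. Free RNA, read from barcodes under 500 UMIs, held Ccr7 at 10.4 and 35.6 CPM, Cd69 at 62.1 and 35.6 CPM, S1pr4 at 79.4 and 24.9 CPM and S1pr1 at 13.8 and 0 CPM in thymus A and B. Cluster levels of Ccr7 were not set beside these values, and how far free RNA contributed to the shares of cells was not tested. The summed Cd69 level in cluster 0 was 57.5 and 63.5 CPM, near that of the free RNA, and in cluster 1 it was 8.54 and 4.80 CPM.

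**Figure D3:**
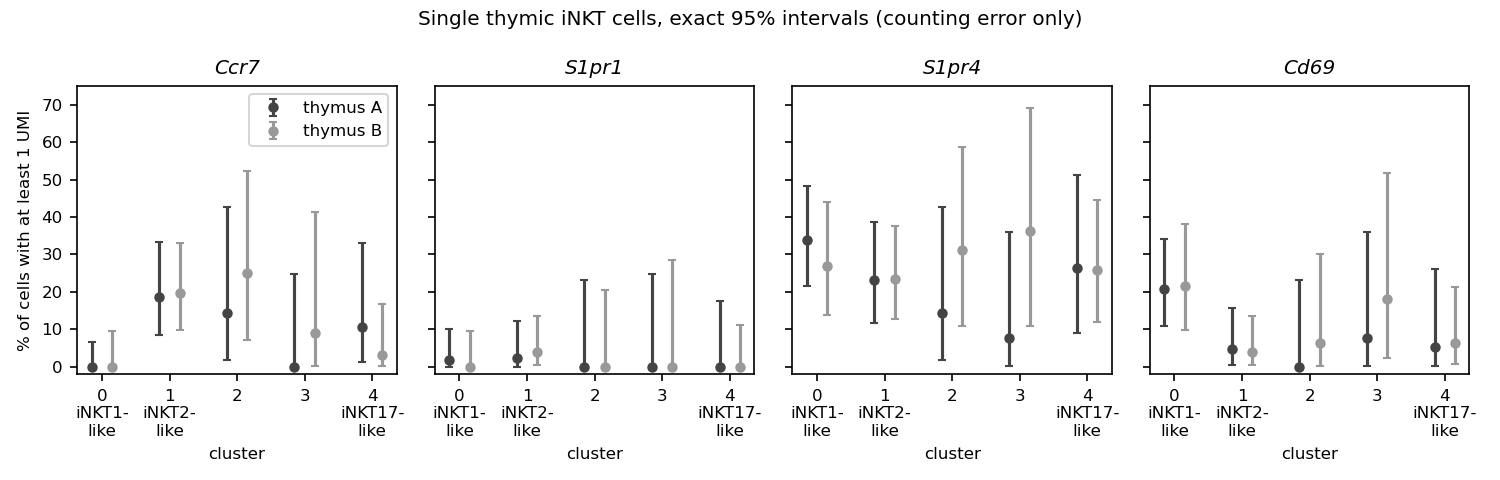
Percent of cells with at least 1 UMI of each gene, by cluster and thymus, with exact 95% binomial intervals. Ccr7 is at 0 in cluster 0 (iNKT1-like) of both mice and at 18.6% and 19.6% in cluster 1 (iNKT2-like), Cd69 is at 20.8% and 21.6% in cluster 0, and S1pr4 has overlapping intervals in all clusters.

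In donor T cells, the homing receptor fell steeply within 7 days of transfer, far more in CD8 than in CD4 cells. Ccr7 was at 1132, 1139 and 1589 CPM in day 0 CD4 cells and at 145.6, 129.0 and 161.4 CPM on day 7 in untreated hosts, 11.3% of its day 0 mean. In CD8 cells it was at 1391, 1458 and 1242 CPM on day 0 and 29.2, 17.3 and 27.7 CPM on day 7, 1.81% of day 0. Day 0 levels of the 2 cell types overlapped and day 7 levels did not. The log2 change was -3.19 ± 0.21 in CD4 (adjusted p = 9.18e-08) and -5.81 ± 0.28 in CD8 cells (adjusted p = 4.92e-10), and the difference between these changes, -2.64 ± 0.32, passed its own test (adjusted p = 6.56e-06).

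S1pr1, the egress receptor, fell much less. It went from 818.9, 856.5 and 836 CPM to 627.9, 677.5 and 671.9 CPM in CD4 cells, 78.7% of day 0, and from 670.3, 661 and 780.6 CPM to 426, 346.2 and 435.9 CPM in CD8 cells, 57.2% of day 0. Neither pair of groups overlapped. The change was -0.39 ± 0.12 in CD4 (adjusted p = 0.0238) and -0.83 ± 0.11 in CD8 cells (adjusted p = 9.89e-06). The CD4 call was weak: it was lost without a low-count filter (adjusted p = 0.0666), in a fit of the 2 groups alone (0.0759) and when any of 5 of the 6 libraries was left out (0.0605 to 0.111), and held without day 0 replicate 3 (0.0294). The changes in CD8 and CD4 cells differed by -0.46 (adjusted p = 0.0749), which did not pass in edgeR and did in DESeq2 (adjusted p = 0.0366).

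S1pr4 moved the other way. CD4 cells held 103.3, 101.1 and 60.5 CPM on day 0 and 188.6, 163.2 and 139.6 CPM on day 7, a rise of +0.84 ± 0.19 (adjusted p = 0.00326) with no overlap. CD8 cells held 111.8, 88.4 and 107.6 CPM on day 0 and 117.3, 151.6 and 134.3 CPM on day 7, a smaller rise of +0.37 ± 0.12 (adjusted p = 0.0172) that lost its call without the second day 0 library (adjusted p = 0.0783) or day 7 replicate 2 (0.0725). The difference between the changes, -0.50, did not pass (adjusted p = 0.17), and it was -0.29 without CD4 day 0 replicate 3 (adjusted p = 0.451).

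Cd69 changed in opposite directions. In CD4 cells it rose from 156.8, 153.3 and 119.3 CPM to 300, 244.5 and 301.1 CPM (+0.93 ± 0.23, adjusted p = 0.00534), 197% of day 0. In CD8 cells it fell from 363, 378.7 and 336.5 CPM to 74.4, 60.9 and 101.6 CPM (-2.21 ± 0.21, adjusted p = 3.16e-07), 22.0% of day 0. CD8 cells thus began above CD4 cells (+1.33, adjusted p = 0.000193) and ended below them (-1.84, adjusted p = 2.91e-06), with no overlap at either time, and the changes differed by -3.16 ± 0.32 (adjusted p = 5.17e-07).

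All 4 genes passed between day 7 and day 0 in both cell types, beside 35.6% of 15031 genes in CD4 (17.4% higher, 18.2% lower) and 60.7% of 14586 in CD8 cells (30.9% higher, 29.8% lower), so passing was common there. Comparing CD8 with CD4 cells, 1 of 4 (Cd69) passed on day 0 beside 8.59% of 15601 genes, 3 of 4 passed on day 7 beside 14.5% (Ccr7 at -2.56, adjusted p = 5.17e-08; S1pr1 at -0.71, adjusted p = 9.31e-05; Cd69), and 2 of 4 (Ccr7, Cd69) differed in their change beside 8.78%. Sample titles give CD4 and CD8 cells of day 7 shared experiment names and numbers, which could not be tied to the numbers in the count table. With those column numbers as a replicate block, 3760 genes in place of 2255 differed on day 7, and the member calls were unchanged, at -2.60 for Ccr7, -0.73 for S1pr1, -1.87 for Cd69 and -0.29 for S1pr4 (adjusted p = 0.0808).

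The day 0 libraries carried RNA of other cells that day 7 libraries had little of. B cell markers (6 genes) summed to 396 to 451 CPM in day 0 CD4 and 167 to 605 CPM in day 0 CD8 libraries and to 3.34 to 11.2 CPM in untreated day 7 libraries, myeloid markers (7 genes) to 555 to 1783 and 98.2 to 164.9 CPM, and erythroid and platelet markers (5 genes) to 439 to 6516 and 0.931 to 9.35 CPM. All of these markers were above 0 on day 0, and the B cell marker Pax5 was at 0 in untreated day 7 CD8 cells. Proliferation genes (5) went from 32.7 to 59.3 CPM on day 0 to 380 to 583.5 CPM in CD4 and 896.5 to 1234 CPM in CD8 cells. CD4 day 0 replicate 3 stood apart, with T cell markers at 9231 CPM against 5283 and 5321, co-receptor genes at 428.7 CPM against 878.7 and 910.9, and the lowest S1pr4 and highest Ccr7. Without it, the CD4 changes were -3.01 for Ccr7, +0.82 for Cd69, -0.39 for S1pr1 and +0.64 for S1pr4, and all 4 still passed. The third CD8 day 0 library had the fewest B cell and myeloid markers, and without it the CD8 changes were -5.86, -2.25, -0.74 and +0.41, all still called. How far these cells contributed to the changes was not tested.

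**Figure D4:**
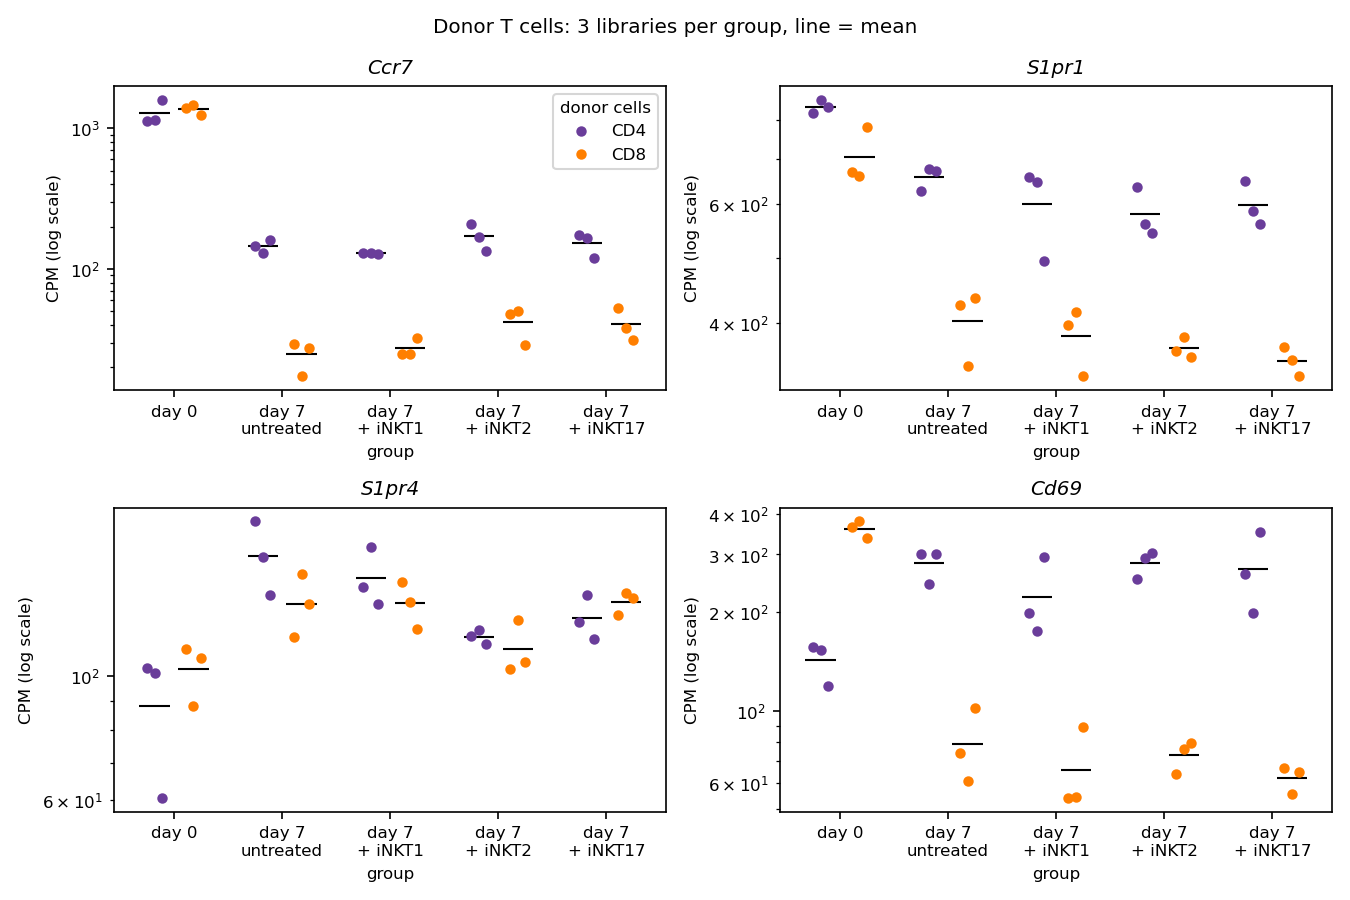
Level of each gene in the 30 donor T cell libraries, in CPM on a log axis, by cell type, day and treatment, with 3 libraries per group as points and the mean as a line. Ccr7 drops in both cell types and lowest in CD8 cells, Cd69 rises in CD4 and falls in CD8 cells, and S1pr1 and S1pr4 move within a narrow band.

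The list counts that follow stand beside the 35.6% (CD4) and 60.7% (CD8) of all genes that passed. Of the other S1P receptors, S1pr2, a receptor that restrains migration, rose in CD4 (+1.25) and CD8 cells (+1.02), and S1pr3 fell (-5.56 and -8.80) from 12.2 ± 2.93 and 11.8 ± 7.33 CPM to 0.266 ± 0.0761 and 0.0211 ± 0.0364 CPM (SD, n = 3). With S1pr1 and S1pr4 this gave 2 that rose and 2 that fell of 5 in each cell type. S1pr5 was at +0.71 and +1.18 and did not pass (adjusted p = 0.274 and 0.085). Of 9 tested genes of S1P making, breaking and export, none rose, and 2 fell in CD4 and 5 in CD8 cells, led by Plpp3 (-5.83 and -7.37), a lipid phosphatase, and Spns2 (-3.29 and -5.75), an S1P exporter. S1pr3, Plpp3 and Spns2 fell together with the B cell, myeloid and platelet markers given above, and the part of those cells was not tested.

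The other lymphoid chemokine receptors changed unevenly. Ccr9, a receptor for gut and thymus homing, rose in CD4 (+2.40) and fell in CD8 cells (-3.33), a difference that passed (-5.76, adjusted p = 1.81e-06). Cxcr5, the receptor for B cell follicles, fell in CD8 cells (-3.93) and stood at -0.10 in CD4 cells, where it did not pass, and the changes differed by -3.85 (adjusted p = 4.84e-05). The B cell markers given above also fell in both cell types, and the part of B cells in the Cxcr5 changes was not tested. Gpr183 rose slightly in CD8 cells (+0.36, adjusted p = 0.0435).

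Among the transcription factors, 2 rose and 6 fell of 9 in each cell type (medians -1.31 and -1.76). Tbx21 (+3.81 and +3.79) and Prdm1 (+1.83 and +3.76), factors of effector T cells, rose. The falls named by smallest p were Tcf7 (-1.47) and Lef1 (-1.31) in CD4 and Foxo1 (-1.82) and Foxp1 (-1.81) in CD8 cells. For Lef1, Foxo1 and Foxp1 the difference between the cell types did not pass the edgeR interaction test (adjusted p = 0.105, 0.255 and 0.365). In the edgeR interaction test the change of Tcf7 differed by -2.435 (adjusted p = 4.91e-05), so it fell further in CD8 than in CD4 cells. The changes also differed for Prdm1 (+1.91, adjusted p = 5.21e-05) and Bach2 (-1.85, adjusted p = 0.0125). Klf2 fell in CD8 cells (-1.23, adjusted p = 1.58e-06), from 906.6 ± 64.2 to 393.7 ± 61.3 CPM. In CD4 cells it was at 589.7 ± 206.1 CPM on day 0 and 521.6 ± 102.4 CPM on day 7 (SD, n = 3) and did not pass (-0.23, adjusted p = 0.506), and the difference between the changes did (-1.03, adjusted p = 0.0223). Of 12 coupling and motility genes, 4 rose and 2 fell in CD4, and 4 rose and 4 fell in CD8 cells: Rgs2 (-4.28 and -4.47) and the arrestin Arrb1 (-2.73 and -3.28) fell, and Gnai2 (+0.56 and +0.69), the inhibitory G protein these receptors use, rose.

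Of 9 activation genes listed beside Cd69, 5 rose and 3 fell in CD4 and 4 rose and 5 fell in CD8 cells. The medians of 0.964 and -1.003 had the signs of the Cd69 changes (+0.93 and -2.21). The genes themselves were split in direction, almost evenly in CD8 cells. Il2ra, the high-affinity IL-2 receptor chain, rose by +1.25 in CD4 and +5.23 in CD8 cells, and Tnfrsf9, a co-stimulatory receptor, by +2.17 and +3.62. Junb, an AP-1 subunit, fell by 1.79 and 3.55, and the zinc-finger factor Egr1 by 0.99 and 3.05, and both fell further in CD8 cells (differences -1.79 and -2.09, adjusted p = 0.00532 and 1.99e-05). Of 6 tested neighbours of Cd69 in the natural killer gene complex, 2 rose and 1 fell in CD4 and 3 rose and 2 fell in CD8 cells, with Klrb1b at +3.70 and +7.01.

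Given iNKT cells, donor T cells on day 7 showed no called change in any of the 4 genes: 0 of 24 tests passed. All comparisons share the untreated libraries. Over all genes edgeR called 0, 0 and 0 in CD4 cells (0.0%) for iNKT1, iNKT2 and iNKT17 treatment, with 1008, 1204 and 1170 at an unadjusted p under 0.05 and 123, 119 and 219 called by DESeq2. In CD8 cells it called 23, 16 and 30 (0.158%, 0.11% and 0.206%).

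Ccr7 in CD8 cells came nearest. It was at 24.9, 25.1 and 32.4 CPM with iNKT1, 47.9, 50.2 and 28.9 CPM with iNKT2 and 52.7, 38.0 and 31.4 CPM with iNKT17, against 29.2, 17.3 and 27.7 CPM untreated. Libraries given iNKT17 all lay above the untreated ones, those given iNKT2 overlapped with 1 library, and those given iNKT1 overlapped more broadly. The log2 difference was +0.16 (interval -0.35 to 0.67) with iNKT1, +0.78 (0.27 to 1.29, adjusted p = 0.186) with iNKT2 and +0.72 (0.21 to 1.23, adjusted p = 0.195) with iNKT17. DESeq2 called the iNKT2 difference (adjusted p = 0.0439). These levels remained at 3.1% and 2.98% of the day 0 mean. Among the 3 treatments, Ccr7 in CD8 cells differed at an unadjusted p of 0.0435 that did not survive adjustment (0.556). In CD4 cells Ccr7 was at 131, 130.1 and 128.2 CPM with iNKT1, 210.3, 170 and 134.7 CPM with iNKT2 and 175.8, 165.4 and 119.3 CPM with iNKT17, all overlapping the untreated range of 129 to 161.4 CPM, with intervals from -0.55 to 0.65 over the 3 treatments.

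S1pr1 was at 494.2 to 658.8 CPM in the 9 treated CD4 and 334 to 416.5 CPM in the 9 treated CD8 libraries. Its differences from untreated were -0.12, -0.18 and -0.12 in CD4 and -0.07, -0.13 and -0.20 in CD8 cells for iNKT1, iNKT2 and iNKT17, with intervals that together ran from -0.45 to 0.16. S1pr4 in CD4 cells was at 117.6, 120.5 and 113.7 CPM with iNKT2, below all untreated libraries (139.6 to 188.6 CPM). That difference of -0.48 (interval -0.89 to -0.08) did not pass (adjusted p = 0.515), nor did those with iNKT1 (-0.12) and iNKT17 (-0.35). In CD8 cells S1pr4 differed by 0.01, -0.27 (adjusted p = 0.381) and 0.00. Cd69 overlapped the untreated libraries in CD8 cells under all 3 treatments, with 54.2 to 89.3 CPM treated and 60.9 to 101.6 CPM untreated and the lowest limit of the intervals at -0.77. In CD4 cells it varied more within groups, from 175.4 to 294.6 CPM with iNKT1 and 198.6 to 352 CPM with iNKT17. No difference between CD8 and CD4 cells in the response to treatment was called for any gene (0.0%; 296 genes at an unadjusted p under 0.05 and 0 by DESeq2).

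**Figure D5:**
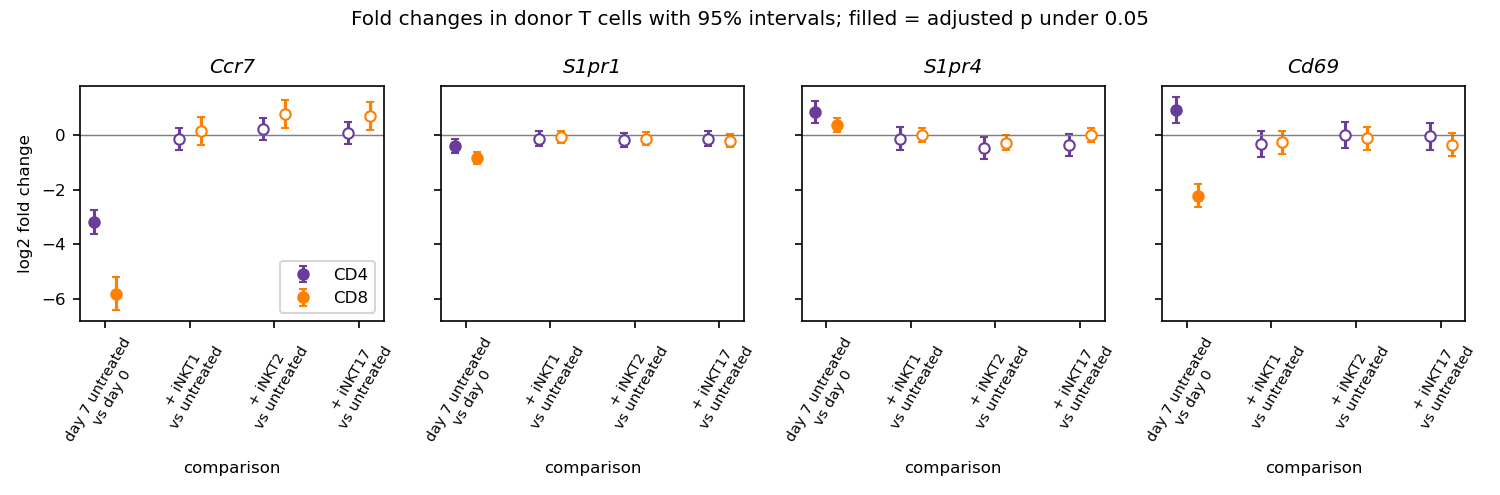
Log2 fold changes of the 4 genes in donor CD4 and CD8 cells, for day 7 against day 0 and for each iNKT treatment against untreated, with 95% intervals; filled points passed the test. The day 7 changes of Ccr7 and Cd69 are far from 0 and the treatment differences cluster around it.

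As a description without a test, the genes most like each member were found over the 30 donor libraries, among 7243 genes whose mean log2 CPM reached 4. These libraries share 10 groups, so Pearson's r mostly follows cell type and day. For Ccr7 they were Btg1 (r = 0.979), Fam101b (0.973) and Dusp10 (0.973), for S1pr1 Trib2 (0.966), Fam134b (0.951) and Cmtm6 (0.945), for S1pr4 Ube2z (0.923), Pstpip1 (0.917) and Nbeal2 (0.909), and for Cd69 Nfkbia (0.961), H2-Q4 (0.945) and Clca3a1 (0.937). Over the 6 iNKT libraries, among 6360 genes, Ccr7 was most like Nxpe3 (0.992), Ccr4 (0.989) and Timeless (0.986), and Cd69 most like Elmo2 and Atf6b (both 0.992) and Prkag1 (0.987). S1pr1 was most like Slc30a9, Ankrd13c and Rsbn1l (0.996 to 0.997) and S1pr4 most like Adipor2 (0.980), Rasgrp2 (0.977) and Zdhhc18 (0.974). The r values of S1pr1 can follow a single library, since iNKT17 replicate 2 held 1 count (0.0388 CPM). No gene was among the closest 3 of a member in both sets of libraries.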

How the data were processed

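The members and gene lists were chosen with earlier results of these data known. The count tables hold raw read counts per gene or per open region, deposited by the authors; the single-cell matrices hold deposited UMI counts. Per the labels' protocols, sorted iNKT RNA was prepared with a stranded mRNA kit and donor RNA with a low-input cDNA kit, both sequenced as read pairs. The submitters' processing notes name STAR 2.5.4, kallisto, DESeq2 1.22.2, Bowtie2, MACS2, HOMER 4.9.1, bedtools 2.27.1, Cell Ranger 2.1 and Seurat 3 and the build mm10 (GRCm38), with no role given; the strand setting of the counting is not given in the sources used here. Gene identifiers were matched to symbols through the single-cell gene table (54.2% of the iNKT and 63.1% of the donor identifiers).

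Counts were tested as deposited with edgeR 4.0.16 (R 4.3.3; TMM, filterByExpr, robust quasi-likelihood, Benjamini-Hochberg, threshold 0.05). One model was fitted to the 6 iNKT RNA, the 6 ATAC, the 15 CD4 and the 15 CD8 libraries, and one to all 30 donor libraries for differences between CD8 and CD4 cells and for printed donor levels. Printed intervals are 95%. RLE scaling, no filter, DESeq2 1.42.0, fits of the compared groups only, a replicate block and leaving out each library were the alternatives. The fitting steps were tested on simulated data. Deviations of ATAC libraries with equal replicate numbers correlated at 0.438 to 0.602, and the block took these libraries as pairs. With 2 libraries in a group the deviations mirror each other, so the 6 pairs are not independent and are limited support for pairing. CD8 day 0 libraries share 1 column name and were numbered in column order. Donor titles name the experiment, and column names do not. The columns follow the titles in their order of groups. That order alone was not taken as a match, so no within-experiment value was computed. Cells were clustered with scanpy 1.11.5 (Leiden, resolution 0.8, 1500 variable genes, 15 components) with no doublet caller. Regions were assigned to the nearest protein-coding RefSeq span.

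The rule for named genes was: the 4 members everywhere; from each list up to 4 called genes of smallest p per comparison; Klf2, S1pr5 and 1 gene that is not reported here anywhere; the 3 genes most like each member; and per member the region at the start site with up to 3 others of smallest p.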

Additional observations from a re-analysis of the deposited data

Results flagged for a closer look

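The day 7 change of Ccr7 differed between the cell types: it was more negative in CD8 than in CD4 cells by -2.64 on the log2 scale (edgeR interaction test, adjusted p = 6.56e-06). All 3 CD8 and all 3 CD4 day 7 libraries lay below every day 0 library of their type. Leaving out any 1 of the 12 libraries gave values from -2.82 to -2.43.

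The day 7 change of Cd69 differed by -3.163 (adjusted p = 5.17e-07), since it rose in all 3 CD4 and fell in all 3 CD8 libraries relative to day 0. Leaving out any 1 of the 12 libraries gave values from -3.38 to -3.00. In both cases B cell, myeloid, erythroid and platelet marker levels were also higher on day 0 than on day 7, and their part was not tested.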

How the results depend on the processing

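The number of genes called depended on the tool and filter more than the members did. For iNKT2 against iNKT1 (159 genes) it was 445 with no filter and 1177 by DESeq2, for iNKT17 against iNKT1 (247) 559 and 1820, and for iNKT17 against iNKT2 (88) 339 and 1487, and 43 in a fit of the 2 groups. In CD4 cells, where 0 were called, DESeq2 called 123, 119 and 219 for the 3 treatments and 4 among them; the groups alone gave 3 for iNKT1, RLE 4 and no filter 1 for iNKT17, and the replicate block 2, 4 and 11. In CD8 cells (23, 16 and 30) DESeq2 called 372, 358 and 475 and 34 among treatments, the groups alone 3, 2 and 6, the block 3 and 5 for iNKT1 and iNKT2, and no filter 57 for iNKT17 and 1 among treatments. CD8 against CD4 on day 7 (2255) rose to 3760 with the block, the difference in change (1370) to 2064 by DESeq2, and the iNKT17 against iNKT2 regions (4549) to 10102 with the block; the cause was not tested.

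Leaving out 1 library gave 153 to 315 genes for iNKT2 and 195 to 1040 for iNKT17 against iNKT1 (highest without iNKT1 replicate 1 and without iNKT17 replicate 1), 157 to 831 for iNKT17 against iNKT2, 0 to 9, 0 to 35 and 1 to 49 for CD8 treatments (highest without CD8 day 7 untreated replicate 3), 1452 to 1944 for CD8 against CD4 on day 7 and 848 to 1995 for the difference in change (both lowest without CD8 day 7 untreated replicate 1). Regions called were 11572 to 17855 and 12884 to 17368 against iNKT1 (lowest without iNKT1 replicate 2) and 1572 to 4985 between iNKT17 and iNKT2 (lowest without iNKT17 replicate 2).

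Across settings other than leaving out a library, 349 member values kept direction and side of the threshold, 6 lost and 5 gained a call, and 12 shares of cells moved. Small treatment differences changed sign: Cd69 with iNKT2 in CD4 cells was -0.007 with RLE and -0.006 by DESeq2, and S1pr4 with iNKT17 in CD8 cells -0.001 with no filter and -0.001 for the groups alone. Leaving out a library moved S1pr4 between iNKT17 and iNKT2 from -0.443 to 1.051. In CD4 cells it moved S1pr1 (-0.192 to 0.002) and S1pr4 (-0.227 to 0.002) with iNKT1, Cd69 with iNKT2 (-0.087 to 0.089), and Ccr7 (-0.020 to 0.248) and Cd69 (-0.275 to 0.137) with iNKT17. In CD8 cells it moved Ccr7 (-0.043 to 0.295), S1pr1 (-0.164 to 0.021) and S1pr4 (-0.085 to 0.104) with iNKT1, Cd69 with iNKT2 (-0.266 to 0.121) and S1pr4 with iNKT17 (-0.088 to 0.094). It also moved the region inside Cd69 in iNKT17 against iNKT1 (-0.815 to 0.244) and the upstream S1pr1 region in iNKT17 against iNKT2 (-0.177 to 0.018), both above 0 without iNKT17 replicate 1.

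Thinned to 2000 UMIs, Ccr7 was seen in 2.22% and 4.32%, S1pr4 in 11.1% and 11.5% and Cd69 in 4.44% and 2.88% of cells of thymus A and B. Not every same-numbered pair of RNA libraries deviated together (iNKT deviations correlated at -0.125 to 0.061; 14 of 30 CD4, 6 of 18 CD8 and 9 of 12 CD4 with CD8 pairs exceeded 0.1). With the block, Cd69 in iNKT17 against iNKT1 had an adjusted p of 0.0833, and no other member call in RNA changed; no block could be fitted where CD8 day 0 libraries enter. S1pr1 in single cells and Ccr7 in sorted iNKT1 cells both rested on a few counts, so their levels are imprecise.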

Other observations

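S1pr5, the S1P receptor known for egress of natural killer cells, was at 5.02, 2.49 and 9.40 CPM in untreated day 7 CD8 cells. It was at 15.2, 18.2 and 42.1 CPM with iNKT1, 24.1, 10.8 and 40.6 CPM with iNKT2 and 26.2, 31.1 and 42.2 CPM with iNKT17, so all 9 treated libraries lay above the untreated ones. The differences of +2.18, +2.17 and +2.56 on the log2 scale did not pass (edgeR adjusted p = 0.111, 0.122 and 0.0667), and 0.158%, 0.11% and 0.206% of genes were called. In CD4 cells it was at 0.714, 1.64 and 3.23 CPM untreated, and all 9 treated libraries lay above these as well, from 4.26 to 14.25 CPM, with differences of +2.15, +1.82 and +2.53 that did not pass (adjusted p = 0.33, 0.344 and 0.103; 0.0% of genes called). S1pr5 was named by the rule, and this view of it was chosen after its values were seen.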
